A study of Mus musculus with 32 samples.

Results

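Population A and population C are sets of myeloid cells sorted by flow cytometry from EG7 tumours, and the difference between them is described here over all host genotypes at once. EG7 is a transplantable mouse thymoma line of T lymphocyte origin. Population A was gated as Ly6C-positive CD11b cells without Ly6G or MHC class II. Population C was gated as MHC class II-positive CD11b cells without Ly6C. The arrays were taken by their titles and are all 16 Mouse Gene 2.0 ST arrays of the 32 arrays of the series, 8 of population A and 8 of population C. Each population came from TNFR1-/- hosts, in which the TNF receptor gene Tnfrsf1a is disrupted in the germline, from Myd88flox/flox hosts with Tie2-Cre (Myd88 cKO), from hosts with all 3 alleles (double KO) and from WT hosts, with 2 arrays per genotype and population. Tie2-Cre acts in endothelial and blood cell lineages, so the Myd88 cKO is not a macrophage-restricted deletion. All hosts carried the same tumour line, and the labels give no host age or strain. Nor do they give the animal or pool behind an array, so the p-values below rest on a spread among samples that may be technical.

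Monocytes enter tumours as Ly6C-high cells, and as they mature into macrophages they lose Ly6C, take up MHC class II and acquire receptors for dead cells and debris, complement C1q, scavenger lectins and a larger lysosomal system. CD11b is also carried by granulocytes. A gate without Ly6G removes neutrophils, whereas eosinophils carry CD11b and lack both Ly6G and MHC class II.

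Values are the log2 signals per probe set that the authors deposited, made with RMA. A difference is the log2 signal of A minus that of C, so 1 unit is a 2-fold change, and the value after ± is its standard error. It was fitted with limma over all 16 arrays with host genotype as a block, which makes it the mean of the 4 within-genotype differences. A gene was called at a Benjamini-Hochberg adjusted p under 0.05 over the 15078 genes tested. The files hold no detection calls, so the 40th percentile of all probe sets of an array served as the mark for low signal. Array medians were 5.37 to 5.50 in A and 5.31 to 5.40 in C. The 2 arrays of a group correlated at 0.977 to 0.983 in A and 0.984 to 0.991 in C, apart from the A_WT pair at 0.948. The first principal component held 47.1% of the variance and put all A arrays above 0 and all C arrays below 0, with the second A_Myd88cKO array nearest to C at 3.94. In bulk RNA of this kind, more cells of a type and more RNA per cell cannot be told apart.

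The targeted genes bear on the labels. Myd88 read 7.70 to 8.32 in A and 7.49 to 8.76 in C of the hosts with floxed Myd88, against 9.46 to 10.03 in A and 9.22 to 10.05 in C of the other hosts. Tnfrsf1a read 7.51 to 8.20 in A and 7.55 to 7.87 in C of hosts without TNFR1, against 7.95 to 8.30 in A and 7.81 to 8.55 in C of the others, and it was not tested here which part of the gene its probes read. Neither gene was called between populations, with differences of -0.01 ± 0.14 for Myd88 and -0.02 ± 0.12 for Tnfrsf1a. The genes of the gate are no finding. Ly6c2 and the class II genes went with the labels, and Ly6g, which the gate of A leaves out, did not. Ly6c2 lay between 11.31 and 12.93 in A and between 7.88 and 9.99 in C, a difference of 3.21 ± 0.19. H2-Aa, H2-Ab1 and H2-Eb1, which encode class II chains, were lower in A by 1.95 to 1.98, and they read 8.52 to 11.98 in A. Itgam, the gene of CD11b, did not differ (0.27 ± 0.18, adjusted p = 0.268). Ly6g averaged 1.16 ± 0.23 higher in A, at 5.06 to 6.88 in A and 4.33 to 5.49 in C, where 2 of 8 arrays lay above the low-signal mark.

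Across the genome, 5121 of 15078 genes (34.0%) were called, 1643 higher in A (10.9%) and 3478 lower in A (23.1%). Centring each array on its median moved this split to 952 higher and 4290 lower, and shifted the median of all genes by -0.07. A difference of at least 2-fold was reached by 173 genes higher in A (1.15%) and 324 lower in A (2.15%). All 8 A arrays lay above all 8 C arrays for 168 genes (1.11%), and all 8 lay below for 801 genes (5.31%). The rises were fewer and the largest of them were larger: the leading rise was 5.65 on the log2 scale, and the leading fall among genes whose groups did not overlap was -2.65. The shares of all genes called, 10.9% higher and 23.1% lower in A, are the background of the list counts below.

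The gene with the largest rise was Retnlg, which encodes a resistin-like secreted protein known from neutrophils and other bone marrow cells. Its signal was 9.50 at the lowest, 11.02 at the median and 11.56 at the highest in A, against 4.35, 5.14 and 5.81 in C. The gap between the groups was wider than either group's range, and the mean difference was 5.65 ± 0.18 (adjusted p = 5.04e-12, limma). In C, 4 of the 8 arrays were below the 40th percentile for this gene, so its size is set against a low signal.

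Alox15, a lipoxygenase of eosinophils and some macrophages, read 9.60 to 12.57 in A with a median of 11.73, against 5.74 to 8.13 in C with a median of 6.79. It was 4.77 ± 0.24 higher in A, or 27.3-fold. F5, coagulation factor V, read 8.28 to 11.93 in A and 5.61 to 6.73 in C (4.60 ± 0.30). Ccr3, the eotaxin receptor that defines eosinophils, read 6.76 to 10.40 in A and 4.45 to 5.64 in C (4.19 ± 0.30), with 4 of 8 C arrays above the low-signal mark. For each of these genes the lowest A array was an array from WT hosts, and it still lay above the highest C array. Pglyrp1, an antibacterial peptidoglycan recognition protein of granules, was 4.18 ± 0.31 higher in A. Siglecf, the sialic acid-binding lectin by which mouse eosinophils are recognised, was 3.24 ± 0.30 higher, at 7.0 to 10.26 in A and 5.01 to 6.24 in C. Il13, a type 2 cytokine, was 2.76 ± 0.36 higher, at 7.48 to 11.13 in A and 6.47 to 6.95 in C.

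The other named genes among the 20 largest rises were Ly6a2 (3.92), the surface glycoprotein Cd24a (3.74), the adaptor Gapt (3.58), the membrane-anchored semaphorin Sema7a (3.43), the plasminogen activator inhibitor Serpinb2 (3.41), Rflnb (3.26), the adhesion G protein-coupled receptor Adgre4 (3.15), the ATP-gated channel P2rx1 (2.78), the B-cell scaffold protein Bank1 (2.76), the inhibitory lectin Siglecg (2.72), the nuclear envelope protein Syne1 (2.69) and Tmem71 (2.57). Groups that did not overlap were required for these 20 genes, and 1 predicted gene of that size was only counted.

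**Figure D1:**
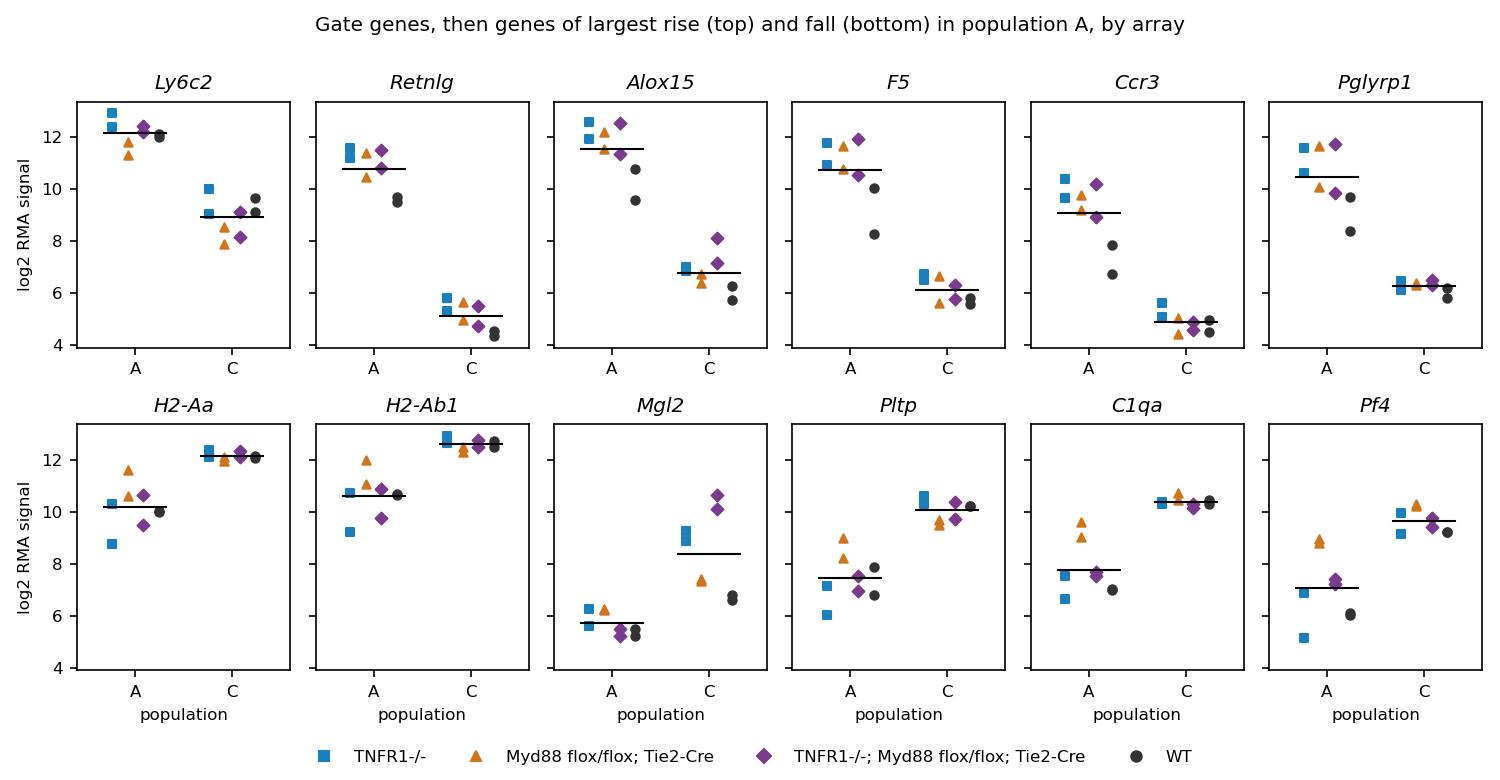
Log2 RMA signal (vertical axis) of each array in population A (left in each panel) and population C (right) for the gate gene Ly6c2 and the 5 largest rises (top row), and for the gate genes H2-Aa and H2-Ab1 and the 4 largest falls among genes without overlap (bottom row). Symbols give the host genotype and bars the mean of 8 arrays; Retnlg reads 9.50 to 11.56 in A and 4.35 to 5.81 in C, while the Mgl2 signal spreads over 6.60 to 10.63 within C.

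The falls were led by genes of mature macrophages. C1qa, which encodes a chain of the complement opsonin C1q, read 6.66 at the lowest, 7.55 at the median and 9.61 at the highest in A, against 10.13, 10.34 and 10.71 in C. It was -2.61 ± 0.23 in A minus C, a 6.10-fold change, and its partners C1qc (-2.56 ± 0.29) and C1qb (-2.21 ± 0.29) went with it. In all 3 genes the 2 highest A arrays were those of Myd88 cKO hosts, at 9.01 and 9.61 for C1qa, and the 8 A arrays lay below the 8 C arrays. Pltp, which transfers phospholipids between lipoproteins, fell by 2.62 on the log2 scale (± 0.31), at 6.04 to 9.0 in A and 9.49 to 10.60 in C. The mannose receptor gene Mrc1 fell by 2.53 (± 0.25), at 6.64 to 9.72 in A and 10.09 to 11.63 in C. The folate receptor gene Folr2 fell by 2.48 (± 0.24) and Arg1, arginase 1, by 2.36 (± 0.27). Mgl2, a galactose-binding lectin, had the largest fall among genes without overlap (2.65 ± 0.40), and its values in C depended on the host. Further falls of this size were found for the chemokine genes Pf4 (-2.57), Ccl7 (-2.17) and Ppbp (-2.11), for the carbonyl reductase Cbr2 (-2.29), for Plxdc2 (-2.15), Emp1 (-2.12), the lectin-like receptor Klrb1b (-2.11), the chemokine receptor Ccr7 (-2.10), the endocytic adaptor Dab2 (-2.06) and the guanylate-binding protein Gbp8 (-1.99).

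Promoters of 2 genes from each side are printed because each pair moved together in every genotype. Each window runs from 250 bases before to 50 bases after the gene start in RefSeq annotation of GRCm38.p6, read 5′ to 3′ on the strand of the gene, and was matched by gene symbol. Ccr3 lies on the plus strand at chr9:124021721-124022020, Siglecf on the plus strand at chr7:43351091-43351390, C1qb on the minus strand at chr4:136886151-136886450 and C1qc on the minus strand at chr4:136892865-136893164. Capitals mark matches on either strand to AGATAA or TGATAA, the words bound by GATA factors, to GAGGAA, the core bound by PU.1, and to TGCTGA, a Maf half-site.
Ccr3: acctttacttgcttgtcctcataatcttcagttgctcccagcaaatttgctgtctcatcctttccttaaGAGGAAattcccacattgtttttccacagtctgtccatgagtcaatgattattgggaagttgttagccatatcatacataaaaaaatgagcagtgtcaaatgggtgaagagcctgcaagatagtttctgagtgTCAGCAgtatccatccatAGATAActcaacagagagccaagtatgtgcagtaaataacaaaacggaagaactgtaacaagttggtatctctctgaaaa
Siglecf: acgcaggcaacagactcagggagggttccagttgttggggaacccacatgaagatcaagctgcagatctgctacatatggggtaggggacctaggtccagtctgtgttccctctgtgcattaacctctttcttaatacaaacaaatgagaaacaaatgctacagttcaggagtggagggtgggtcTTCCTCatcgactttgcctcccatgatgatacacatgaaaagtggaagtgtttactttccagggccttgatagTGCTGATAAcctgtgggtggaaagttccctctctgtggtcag
C1qb: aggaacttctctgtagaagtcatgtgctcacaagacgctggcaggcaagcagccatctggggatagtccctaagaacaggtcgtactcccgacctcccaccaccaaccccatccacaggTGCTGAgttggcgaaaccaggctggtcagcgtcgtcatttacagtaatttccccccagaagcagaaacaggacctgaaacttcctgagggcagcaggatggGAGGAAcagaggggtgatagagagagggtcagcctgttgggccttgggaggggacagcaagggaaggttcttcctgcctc
C1qc: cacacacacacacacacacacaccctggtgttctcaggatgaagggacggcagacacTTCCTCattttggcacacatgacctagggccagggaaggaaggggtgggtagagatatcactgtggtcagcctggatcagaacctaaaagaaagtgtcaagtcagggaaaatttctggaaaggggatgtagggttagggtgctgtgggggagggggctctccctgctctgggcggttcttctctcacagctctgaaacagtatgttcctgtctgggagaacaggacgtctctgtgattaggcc
The GATA words were matched in the Ccr3 and Siglecf windows, once in each, and in neither C1q window, whereas GAGGAA was matched once in all 4 windows and TGCTGA once in each but that of C1qc. In the Siglecf window TGCTGA and TGATAA overlap. Of 32851 promoter windows of this length, 18.6% hold a GATA word, 28.3% hold GAGGAA and 19.5% hold TGCTGA, so each match is common and is a description of the letters alone.

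Genes of other cell types moved with the populations, and their part in the results was not tested. Of 16 genes of the eosinophil and mast cell list measured on the array, 12 passed the filter on low signal, and 11 of these were called higher in A and none lower, against 10.9% higher over all genes tested. For 5 of the 12 at least 1 C array was not above the low-signal mark, so that they passed with the help of the A arrays, and the count is a description that supports nothing. Without the filter 12 of the 16 were called higher, with a median difference of 0.79. The mean log2 signal of the whole list was 5.57 to 7.0 in A and 4.85 to 5.08 in C, and the lowest A values, 5.57 and 5.95, were those of the WT pair. Besides Ccr3, Siglecf and Alox15, the list members Il5ra, the interleukin-5 receptor (1.96 ± 0.22), and the transcription factors Gata2 (1.07 ± 0.18) and Gata1 (0.82 ± 0.14) were higher in every A array than in any C array. For Il5ra and Gata2, 2 of 8 C arrays each lay above the low-signal mark. Among the eosinophil granule genes, Epx, eosinophil peroxidase, read 5.40 to 6.05 in A and 5.04 to 5.34 in C (0.56 ± 0.10), and Prg2, the major basic protein, read 5.74 to 8.51 in A and 5.18 to 5.79 in C (1.27 ± 0.28). Kit, which marks mast cells, was the member not called (-0.19 ± 0.11, adjusted p = 0.173), and 3 listed genes were below the 40th percentile in all A arrays.

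Of 14 tested neutrophil genes, 8 were higher in A and none lower, against 10.9% higher over all genes tested. For 5 of the 14 at least 1 C array was not above the low-signal mark, and for 3 at least 1 A array was not. Without the filter 10 of 20 were higher. The list averaged 6.28 to 6.71 in A and 5.40 to 5.68 in C. Retnlg led it, and other called members were the histidine decarboxylase Hdc (2.20 ± 0.31), the peptidylarginine deiminase Padi4 (1.93 ± 0.26), the iron-sequestering lipocalin Lcn2 (1.29 ± 0.14) and Cd177 (1.13 ± 0.14). The calprotectin gene S100a9, among the most abundant transcripts of neutrophils, read 5.93 to 6.89 in A and 5.56 to 6.31 in C (0.44 ± 0.13). The remaining 6 tested genes of the list were not called. Fibroblast genes were called higher in 6 of 8 cases, against 10.9% of all genes. Their list mean was 5.83 to 7.10 in A and 5.60 to 5.93 in C. Decorin, Dcn, read 5.42 to 8.45 in A and 4.67 to 5.29 in C (2.12 ± 0.27), with 2 of 8 C arrays above the low-signal mark, and its difference was 0.64 in TNFR1-/- hosts against 2.64 in Myd88 cKO, 3.04 in double KO and 2.19 in WT hosts. Collagen genes followed, with Col1a1 at 1.32 ± 0.21 and Col3a1 at 0.59 ± 0.11.

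T lymphocyte genes were called higher in 5 of 11 cases, against 10.9% of all genes, and in 1 to 6 under the 32 other settings. Cd8a (0.51 ± 0.09) and Cd3e (0.67 ± 0.20) were among the 5. The list mean was 5.59 to 6.62 in A and 5.67 to 6.06 in C. The calls of Cd3e, Cd3g and Thy1 were lost without the double KO hosts, where the Cd3e difference was 1.55, and those of Cd3g and Thy1 under 20 of 32 other settings. B lymphocyte and natural killer cell genes had 3 higher and 1 lower of 5 tested in each list, against 10.9% and 23.1% of all genes. For 3 of the 5 B lymphocyte genes and 1 of the 5 natural killer cell genes, at least 1 C array was not above the low-signal mark. For 3 of the B lymphocyte genes at least 1 A array was not. Without the filter 3 of 9 B lymphocyte and 4 of 9 natural killer cell genes were higher, and 1 was lower in each list. Means for B lymphocytes were 5.45 to 5.73 in A and 5.13 to 5.93 in C. Those for natural killer cells were 5.26 to 5.78 in A and 5.01 to 5.29 in C. Endothelial genes had 3 higher and 1 lower of 7, and 0 to 3 higher under the 32 other settings. Their means were 5.40 to 6.18 in A and 5.36 to 5.61 in C. None of the red blood cell genes passed the filter.

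**Figure D2:**
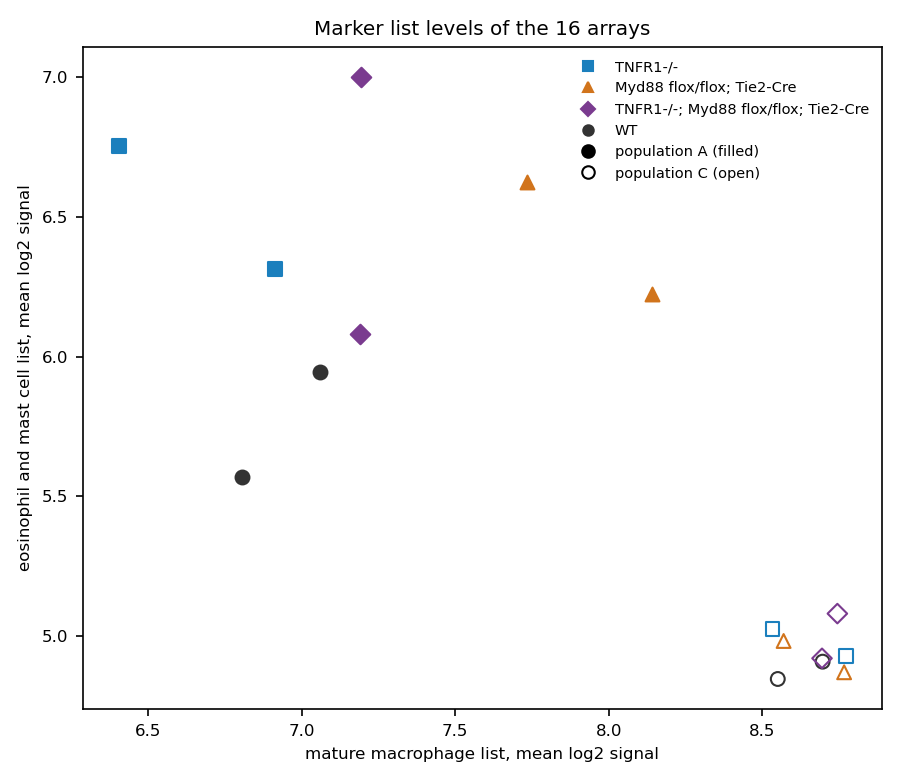
Mean log2 signal of the mature macrophage list (horizontal axis) and of the eosinophil and mast cell list (vertical axis) for each of the 16 arrays, filled for population A and open for population C. The C arrays lie together at 8.53 to 8.77 and 4.85 to 5.08, and the A arrays spread over 6.41 to 8.14 and 5.57 to 7.0, with the Myd88 cKO pair nearest to C on the macrophage axis.

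Monocyte genes divided. Of 19 inflammatory monocyte genes, 4 were higher in A, 7 were lower and 8 were not called (median -0.25). Plac8, a small cysteine-rich protein of Ly6C-high monocytes, read 8.48 to 9.96 in A and 6.26 to 8.83 in C (1.95 ± 0.20). Ifitm6, an interferon-induced membrane protein of monocytes, was 1.74 ± 0.29 higher. The list's members on the other side included Cd93 (-1.45 ± 0.19), the fibronectin gene Fn1 (-1.14 ± 0.21), the adhesion molecule Emb (-0.94 ± 0.20) and coagulation factor X, F10 (-0.85 ± 0.17). Ccr2, the receptor that brings these monocytes out of the marrow, read 8.28 to 9.82 in A and 8.78 to 9.90 in C and was not called (-0.22 ± 0.22, adjusted p = 0.461).

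Of 19 patrolling monocyte genes, 10 were higher in A and 4 lower, against 10.9% and 23.1% of all genes. The median was 0.42, and list means were 8.03 to 8.42 in A against 7.48 to 7.87 in C. Besides Pglyrp1 and Adgre4, glutathione reductase, Gsr (2.26 ± 0.26), the angiotensin-converting enzyme Ace (1.88 ± 0.23) and the integrin chain Itgal (1.41 ± 0.18) were higher in all 8 A arrays than in C. Nr4a1, the nuclear receptor on which patrolling monocytes depend, was 0.72 ± 0.15 higher, at 11.08 to 11.93 in A and 10.19 to 11.15 in C. Cd36, a scavenger receptor of the same list, fell by 1.91 (± 0.24). Pglyrp1 and Gsr are also expressed by granulocytes, and the part of such cells in their rise was not tested. Their differences were smallest in WT hosts, at 3.03 and 1.0, as for 151 of the 173 genes at least 2-fold higher in A.

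The called genes of the mature macrophage list moved in a single direction. Of 24 tested genes, 22 were lower in A, against 23.1% of all genes, and none higher. The median was -1.49, and 14 of the 24 had no overlap between populations, against 5.31% of all genes. The list averaged 6.41 to 8.14 in A and 8.53 to 8.77 in C. Mertk, a receptor for dying cells, fell by 2.08 (± 0.20), the lipid-sensing receptor Trem2 by 1.77 (± 0.17), the scavenger receptor Stab1 by 1.53 (± 0.14) and the transcription factor Maf by 1.44 (± 0.12). Cd68, a lysosomal glycoprotein used to mark macrophages, read 9.57 to 11.90 in A and 11.81 to 12.35 in C (-1.17 ± 0.17). The 2 members not called were Timd4, which was near the low-signal mark throughout, and Adgre1, the gene of F4/80, whose difference was 0.43 ± 0.25 (adjusted p = 0.194). Adgre1 read 8.98 to 11.03 in A and 9.16 to 10.38 in C, so a macrophage and eosinophil surface marker stayed at a high signal in population A. In WT hosts it was lower in A (9.78 and 8.98) than in C (10.38 and 10.22). In the other hosts it was higher in A, at 9.95 to 11.03 against 9.16 to 9.90 in C. Without WT hosts the list had 23 genes lower in A and 1 higher. Csf1r, the receptor for macrophage colony-stimulating factor, fell by 0.78 (± 0.13) and at 8.68 to 10.32 in A kept a signal far above the array's low range.

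Each of the 27 lysosomal genes tested was lower in A, against 23.1% of all genes, and the count was 27 under each of the 32 other settings tried. The median was -1.0. Hexa, a subunit of beta-hexosaminidase, read 8.45 to 10.01 in A and 10.19 to 10.70 in C (-1.38 ± 0.13). The proton pump subunits Atp6v1c1 (-1.41 ± 0.13) and Atp6v1b2 (-1.09 ± 0.12), acid ceramidase, Asah1 (-1.09 ± 0.11), the acid phosphatase Acp5 (-1.34 ± 0.14) and the membrane glycoprotein Lamp1 (-0.84 ± 0.10) fell with it. The list's medians within genotypes were -1.23 in TNFR1-/-, -0.67 in Myd88 cKO, -0.94 in double KO and -0.99 in WT hosts.

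Uptake receptors followed. Of 22 lectin and scavenger receptor genes, 16 were lower and 1 higher, with a median of -0.99; Clec4n, the gene of dectin-2, fell by 1.95 (± 0.23) and Clec7a, that of dectin-1, by 1.06 (± 0.13). All 6 Fc receptor genes that were tested were lower. The neonatal Fc receptor Fcgrt (-1.64 ± 0.14) and the activating receptor Fcgr4 (-1.52 ± 0.19) fell most, and the signalling chain Fcer1g least (-0.25 ± 0.07), a call that was lost when the arrays were quantile normalized (adjusted p = 0.48). Of 16 genes of apoptotic cell uptake, 8 were lower and 3 higher. The receptor tyrosine kinase gene Axl fell by 1.79 (± 0.19) and the endocytic receptor gene Lrp1 by 1.29 (± 0.21), while the integrin chain Itgb3 was 1.51 ± 0.21 higher. Complement genes had 8 lower and 1 higher of 14. Beside the C1q chains, properdin, Cfp (-1.18 ± 0.16), and the anaphylatoxin receptors C3ar1 (-1.06 ± 0.15) and C5ar1 (-0.79 ± 0.11) were lower in all 8 A arrays than in any C array.

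Lipid and iron handling moved the same way. Of 18 genes of cholesterol and lipid handling, 12 were lower and 1 higher (median -0.55). The fatty acid-binding protein Fabp5 fell by 2.22 (± 0.27), lipoprotein lipase, Lpl, by 1.90 (± 0.25), the cholesterol exporter Abca1 by 1.57 (± 0.19) and Apoe by 0.98 (± 0.09). Of 18 genes of heme, iron and arginine metabolism, 14 were lower and 2 higher (median -0.71). Heme oxygenase 1, Hmox1, read 7.72 to 9.59 in A and 9.81 to 10.25 in C (-1.39 ± 0.18), and the arginine transporter Slc7a2 fell by 1.56 (± 0.23). Of 25 glycolysis and hypoxia genes, 15 were lower and 1 higher (median -0.39). The member that was higher was Slc2a3, the glucose transporter GLUT3 of granulocytes and other cells, at 7.40 to 10.61 in A and 6.43 to 7.16 in C (2.30 ± 0.26), whereas hexokinase 3, Hk3, fell by 0.83 (± 0.13) and the stress-responsive Ndrg1 by 1.06 (± 0.20).

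**Figure D3:**
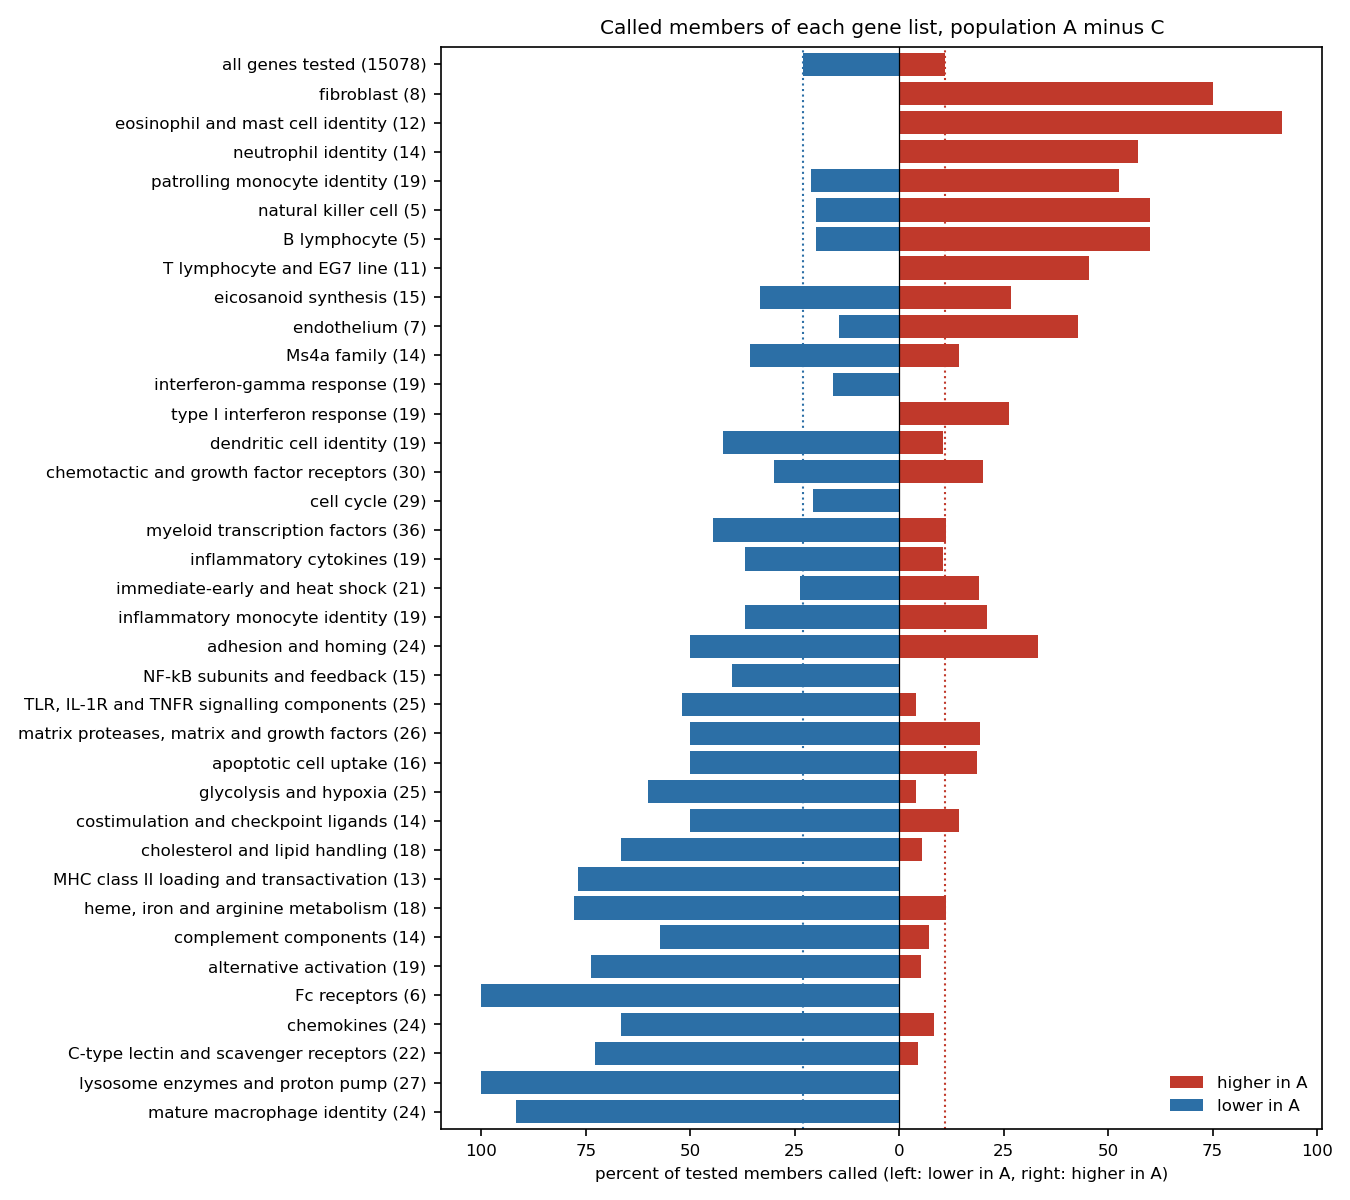
Percent of the tested members of each gene list called lower in A (blue, to the left) or higher in A (red, to the right) in the additive fit, with the number tested in brackets and lists ordered by their median difference. Dotted lines mark the share of all genes tested, 23.1% lower and 10.9% higher; the lysosome list reaches 27 of 27 lower and the eosinophil and mast cell list 11 of 12 higher.

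Antigen presentation genes other than the class II genes of the gate were lower in A too. The populations were sorted on MHC class II, so the direction of genes of class II loading and transactivation is not independent of the sort. Of 13 genes of class II loading and transactivation, 10 were lower and none higher (median -0.57). The peptide exchange chain H2-DMb2 fell by 1.76 (± 0.19), the protease Lgmn by 1.81 (± 0.22), the transactivator Ciita by 1.02 (± 0.15) and the reductase Ifi30 by 1.03 (± 0.19), and each had no overlap between populations. Of 14 costimulation and checkpoint genes, 7 were lower and 2 higher. Pdcd1lg2, the ligand PD-L2, read 5.70 to 8.63 in A and 8.62 to 9.90 in C (-2.45 ± 0.22), and Cd86 fell by 0.98 (± 0.22). The 2 members on the other side were Cd80 (0.92 ± 0.19) and the checkpoint receptor Vsir (0.59 ± 0.13). Dendritic cell genes had 8 lower and 2 higher of 19, with a median of -0.08. Their called falls included Itgax (-1.93 ± 0.19), the gene of CD11c, and Irf4 (-0.94 ± 0.17). Irf4 was below the low-signal mark in both A arrays of WT hosts, among others.

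Chemokine genes were lower in A in 16 of 24 cases, against 23.1% of all genes, and higher in 2 (median -0.92). Ccl8 read 5.98 to 10.13 in A and 9.90 to 11.52 in C (-2.60 ± 0.32), Ccl12 fell by 1.86 (± 0.15) and the neutrophil attractant Cxcl1 by 1.91 (± 0.20). Ccl12 was below the low-signal mark in both A arrays of WT hosts, among others, so its size is set against a low signal. Of 19 inflammatory cytokine genes, 7 were lower, 2 higher and 10 not called (median -0.20). The share that was higher is not above the 10.9% of all genes. Ifnb1, interferon beta, read 4.81 to 6.03 in A and 6.21 to 7.23 in C (-1.51 ± 0.16), and Il10 fell by 1.29 (± 0.20). The lowest Ifnb1 value in A was below the low-signal mark. The 2 that were higher were Csf1, macrophage colony-stimulating factor (1.08 ± 0.16), and oncostatin M, Osm (0.88 ± 0.21). Among 30 receptor genes, 6 were higher and 9 lower (median -0.15), against 10.9% and 23.1% of all genes. Il17ra was 0.88 ± 0.13 higher and the interferon receptor Ifnar1 lower by 0.87 (± 0.11), each without overlap.

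Sensors of the Toll-like receptor and tumour necrosis factor pathways were lower in 13 of 25 cases and higher in 1 (median -0.32). The RNA sensor Tlr8 fell by 1.55 (± 0.15), the lipopolysaccharide coreceptors Ly96 by 1.25 (± 0.16) and Cd14 by 1.08 (± 0.16), and Tlr4 by 0.84 (± 0.12). Of 15 genes of NF-kB and its feedback, 6 were lower and none higher, led by Tnip3 (-1.38 ± 0.22) and Traf1 (-0.67 ± 0.10). Type I interferon response genes had 5 higher and 14 not called of 19, with a median of -0.04. Isg20 was the highest of them (0.74 ± 0.10). When arrays were centred on their medians, this list had 3 higher and 3 lower, so its direction depends on the scaling. The interferon-gamma response had 3 lower of 19, the inducible GTPase Iigp1 (-1.34 ± 0.21), Nos2 (-1.28 ± 0.26) and Cd274 (-0.45 ± 0.14), with a median of -0.01, and that share is not above the 23.1% of all genes.

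Alternative activation genes, which interleukin-4 and interleukin-13 induce in macrophages, were lower in 14 of 19 cases (median -0.91). For 4 of the 19 at least 1 A array was not above the low-signal mark, and without the filter 14 of 20 were lower. The 1 member that was higher was Alox15, and it is shared with the eosinophil list. Cell cycle genes had 6 lower and 23 not called of 29, with Ccnd1 at -0.92 ± 0.18 and Pcna at -0.53 ± 0.10, a share not above the 23.1% of all genes. Matrix genes had 13 lower and 5 higher of 26. The collagenase Mmp13 read 5.51 to 6.34 in A and 7.09 to 8.14 in C (-1.62 ± 0.16), and the growth factors Igf1 (-1.77 ± 0.18) and Pdgfb (-1.05 ± 0.11) were lower. Adhesion genes divided, with 8 higher and 12 lower of 24. The integrin chains Itgb7 (1.44 ± 0.17) and Itga4 (0.99 ± 0.12), which pair to bind mucosal and vascular ligands, were higher in all 8 A arrays than in C, and Itgb5 fell by 1.05 (± 0.14).

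Of 36 myeloid transcription factor genes, 16 were lower and 4 higher (median -0.20), against 23.1% and 10.9% of all genes. The share that was higher lay near that of all genes. Cebpa, a factor of the myeloid lineage, read 6.03 to 7.71 in A and 8.31 to 8.95 in C (-1.78 ± 0.18). Mitf, a driver of lysosomal and osteoclast genes, fell by 1.28 (± 0.13), Id2 by 0.90 (± 0.10) and the oxysterol receptor Nr1h3 by 0.78 (± 0.12). Cebpe, a factor of late granulocyte development, was on the other side, at 6.80 to 8.96 in A and 5.96 to 6.36 in C (1.74 ± 0.22). Ms4a genes had 5 lower and 2 higher of 14 (median 0.03), with Ms4a7 at -2.65 ± 0.30 and Ms4a14 at -2.12 ± 0.19. Ms4a14 was below the low-signal mark in both A arrays of WT and of TNFR1-/- hosts, so its size is set against a low signal. The median of this list changed sign between settings. Eicosanoid genes had 4 higher and 5 lower of 15. Alox5ap, which presents arachidonate to 5-lipoxygenase, was 0.82 ± 0.15 higher, and the thromboxane synthase Tbxas1 fell by 0.65 (± 0.11). Immediate-early and heat shock genes, which tissue dissociation can induce, had 4 higher and 5 lower of 21 (median -0.24), against 10.9% and 23.1% of all genes. With quantile normalization they had 7 higher and 2 lower, and with median centring 3 higher and 7 lower, so the split depends on the scaling. Their mean signal was 9.68 to 10.22 in A and 9.69 to 10.32 in C.

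The sign of the difference held over the genotypes for most called genes. Of the 3478 genes lower in A, 3320 (95.5%) had that sign in all 4 genotypes, as did 1433 of the 1643 genes higher in A (87.2%). Fewer were called within every genotype, 102 of those lower and 28 of those higher in A, while 1237 and 987 were called in none. Each such contrast rests on 2 arrays against 2. Because called genes are an average of the same 4 differences, agreement of sign is partly built in, so genes were also chosen in the 12 arrays of 3 genotypes and read in the 4 arrays of the genotype left out. Genes chosen as lower in A were lower in the left-out genotype in 99.0% of cases for TNFR1-/-, 96.3% for Myd88 cKO, 95.1% for double KO and 94.5% for WT hosts, against 51.4% to 53.5% of all genes tested. For genes chosen as higher in A the shares were 92.3%, 92.2%, 90.1% and 75.8% in the same order of hosts, against 45.8% to 48.1% of all genes. The share in WT hosts was the lowest of the 4, and the median difference of those genes was 0.23 there, against 0.42 in the 3 genotypes that chose them. Across the 15078 genes the within-genotype differences of 2 genotypes, which share no arrays, correlated at 0.61 to 0.82. The lowest 3 values were those of WT with the other genotypes, and genes are not independent replicates.

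Over all called genes the medians of the difference lay closer together than over the largest ones. The 1643 rises had medians of 0.41 in TNFR1-/-, 0.41 in Myd88 cKO, 0.36 in double KO and 0.39 in WT hosts. The 3478 falls had medians of -0.59 in TNFR1-/-, -0.39 in Myd88 cKO, -0.40 in double KO and -0.55 in WT hosts. Among the 173 genes at least 2-fold higher in A, the median was 1.76 or 1.77 in TNFR1-/- and double KO hosts, 1.67 in Myd88 cKO and 0.77 in WT, and WT had the smallest difference for 151 of them. Among the 324 genes at least 2-fold lower, the median was -1.65 in TNFR1-/-, -0.91 in Myd88 cKO, -1.33 in double KO and -1.33 in WT hosts, and the smallest difference was that of Myd88 cKO for 223. The test of a difference between genotypes called 1 of the 173 and 9 of the 324 at adjusted p under 0.05, against 0.0995% of all genes tested. At an unadjusted p under 0.05 of the same F test the counts were 57 and 125. The share of all genes at that level was not counted, nor was the genotype of smallest difference over all genes. Nothing is therefore read from these counts or from the 151 and 223 as a departure from all genes. Beside these values stand measurements whose part in them was not tested. The A arrays from WT hosts had the lowest eosinophil and mast cell list means, 5.57 and 5.95 against 6.08 to 7.0 in the other A arrays. They also correlated least with each other, at 0.948. Their array weights in the additive fit were the lowest, 0.288 and 0.359 against 0.823 to 1.323 in the other A arrays. The A arrays from Myd88 cKO hosts had the highest macrophage list means of the A arrays, 7.73 and 8.14 against 6.41 to 7.19.

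**Figure D4:**
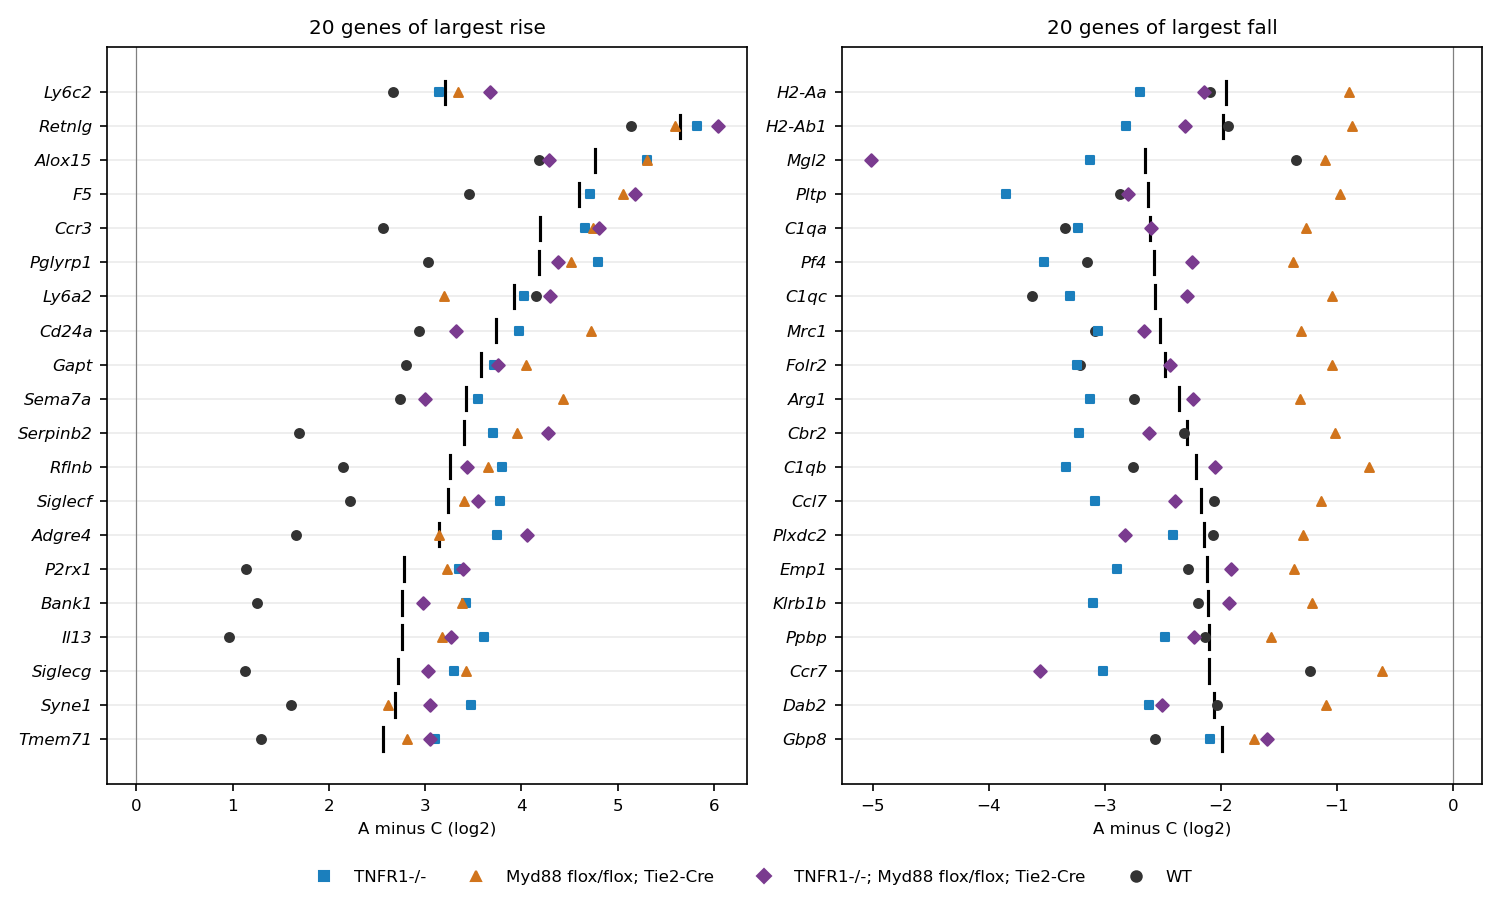
A minus C difference (log2, horizontal axis) within each host genotype for the 20 genes of largest rise (left) and largest fall (right), with gate genes included and a black tick at the mean over genotypes. The WT points lie to the left for most rises, as for Ccr3 at 2.56, and the Myd88 cKO points lie nearest to 0 for most falls, as for C1qa at -1.27.

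Within single genotypes, 2112 genes (14.0%) were called in TNFR1-/-, 329 (2.18%) in Myd88 cKO, 926 (6.14%) in double KO and 2152 (14.3%) in WT hosts. These counts rest on 2 arrays against 2 and depend on single arrays. Without the first A_Myd88cKO array the Myd88 cKO count was 16, without the second it was 549, and without the first C_Myd88cKO array it was 22. The WT count was 433 without the first C_WT array and 3392 without the first A_WT array. The TNFR1-/- count was 728 without the second A array, and the double KO count 268 without the first A array. All 20 of the largest rises were called higher in TNFR1-/- (2.61% of all genes), Myd88 cKO (1.09%) and double KO hosts (1.93%), and 15 of them in WT hosts (3.32%). All 20 of the largest falls were called lower in TNFR1-/- (11.4% of all genes), double KO (4.21%) and WT hosts, and 6 of them in Myd88 cKO hosts (1.09%). Both sets were chosen on the same arrays, so nothing is read from these counts. In the additive fit, leaving out any 1 array gave 4483 to 5678 called genes.

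Some genes gave nearly the same difference in every host. Retnlg was 5.83 higher in A in TNFR1-/-, 5.60 in Myd88 cKO, 6.04 in double KO and 5.13 in WT hosts. Slc38a6, a predicted amino acid transporter, differed by -0.99, -1.09, -1.03 and -1.06 in that order of hosts, and Cacna1d, a calcium channel subunit, by -1.21, -1.15, -1.14 and -0.99. The phosphatase family gene Mtmr10 and the aldo-keto reductase gene Akr1b10 had spreads as small, around means of -1.09 and -1.12. At the other end, the class I-like gene H2-M2 was 0.55 in double KO hosts and -3.08 in WT hosts. It read 6.80 and 7.06 in C of double KO hosts and 9.29 and 10.18 in C of WT hosts, and its call in the additive fit (adjusted p = 0.0404) was lost under 17 of 32 other settings. The tryptophan enzyme gene Kmo, at -1.81 in TNFR1-/- and -2.01 in double KO hosts, was 0.04 in Myd88 cKO and -0.56 in WT hosts. The decoy receptor gene Il1r2 was 2.63 higher in Myd88 cKO and 0.06 to 0.98 higher elsewhere. Its call in the additive fit was lost under 15 of 32 other settings. The test of whether A minus C differs between genotypes called none of H2-M2, Kmo and Il1r2.

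The test of whether A minus C differs between genotypes called 15 genes (0.0995%). For 9 of them the spread over arrays was larger in C than in A, and for 6 it was larger in A. Leaving out 1 array gave 4 to 89 such genes, the lowest without either C_Myd88cKO array and the highest without the second A_WT array. Mgl2, Ccl17, Cd209d and Cdh5 were called under all 18 other settings tried for this test. Ccl22 was called under 16 of them, Ccr7 and Cbr2 under 13 and Stat4 under 12. The remaining calls held less often: Folr2 under 8 settings, Terc under 7, Igfbp7 and Ms4a7 under 6, Zfp366 and Plet1 under 5, and Edn1 under 3.

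Mgl2, the lectin CD301b of alternatively activated macrophages and dermal dendritic cells, had the smallest adjusted p (0.000312). In A it read 6.26 and 5.62 in TNFR1-/-, 6.24 and 6.28 in Myd88 cKO, 5.49 and 5.22 in double KO and 5.21 and 5.50 in WT hosts. In C it read 9.24 and 8.89, 7.33 and 7.40, 10.11 and 10.63, and 6.82 and 6.60 in the same order of hosts. The C values of the 4 genotypes did not overlap, whereas the A values lay between 5.21 and 6.28. The difference was -5.01 ± 0.23 in double KO against -1.35 ± 0.23 in WT hosts, and the gap between those 2 differences was -3.66 ± 0.32 (adjusted p = 0.000271).

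The chemokine gene Ccl17, a ligand of CCR4, behaved likewise. In C it read 9.14 and 8.07 in TNFR1-/-, 7.10 and 6.80 in Myd88 cKO, 9.80 and 10.35 in double KO and 5.99 and 5.96 in WT hosts, while no A array exceeded 6.11 and 5 of 8 A arrays lay above the low-signal mark. Both A arrays of double KO hosts were below it, so the size of the double KO difference is set against a low signal. Its difference was -5.21 ± 0.31 in double KO against -0.95 ± 0.31 in WT hosts. Ccl22, the other CCR4 ligand, read 9.20 and 9.58 in C of TNFR1-/-, 7.35 and 7.44 in Myd88 cKO, 9.80 and 10.45 in double KO, and 7.65 and 7.69 in WT hosts. In A it read 5.32 to 7.35. In Myd88 cKO hosts the Ccl22 difference of -0.42 ± 0.31 was not called (adjusted p = 0.547).

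Ccr7, which guides dendritic cells to lymph nodes, read 10.04 and 9.75 in C of TNFR1-/- and 10.16 and 10.43 in C of double KO hosts, against 8.01 and 8.07 in Myd88 cKO and 8.35 and 8.44 in WT hosts. In A it stayed at 6.55 to 7.90. Cd209d, a lectin of the DC-SIGN family, read 7.63 to 7.81 in C of both kinds of host without TNFR1 and 5.10 to 5.82 in C of the others, against 4.76 to 5.49 in A. Plet1, Edn1, Stat4 and Zfp366 also had their highest C values in hosts without TNFR1, with Plet1 at 8.41 to 10.48 there and at 7.14 to 7.32 in the other hosts. Stat4 was -1.41 in double KO and 0.62 in Myd88 cKO hosts.

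Other genes of this test varied in A. Cdh5, the endothelial cadherin, read 8.04 and 7.84 in A of Myd88 cKO hosts, against 5.15 to 6.69 in the other A arrays and 5.37 to 5.79 in C. Igfbp7, a secreted protein of vessels and stroma, read 9.55 and 9.32 in A of Myd88 cKO hosts and 5.92 and 6.49 in A of TNFR1-/- hosts, against 5.90 to 6.39 in C. Cdh5 is 1 of the 12 genes of the endothelial list. The mean of the other 11 was 6.01 and 5.87 in the A arrays of Myd88 cKO hosts, 5.39 to 5.74 in the other A arrays and 5.35 to 5.60 in C, and the part of endothelial cells was not tested. Folr2, Cbr2 and Ms4a7, all of them macrophage genes, had their highest A values in Myd88 cKO hosts. Folr2 read 8.60 and 9.06 there, against 6.18 to 7.98 in the other A arrays and 9.32 to 10.32 in C, and its difference was -1.04 in Myd88 cKO against -3.21 in WT hosts. Terc, the telomerase RNA, was -1.03 in TNFR1-/- and 0.20 to 0.71 in the other hosts.

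**Figure D5:**
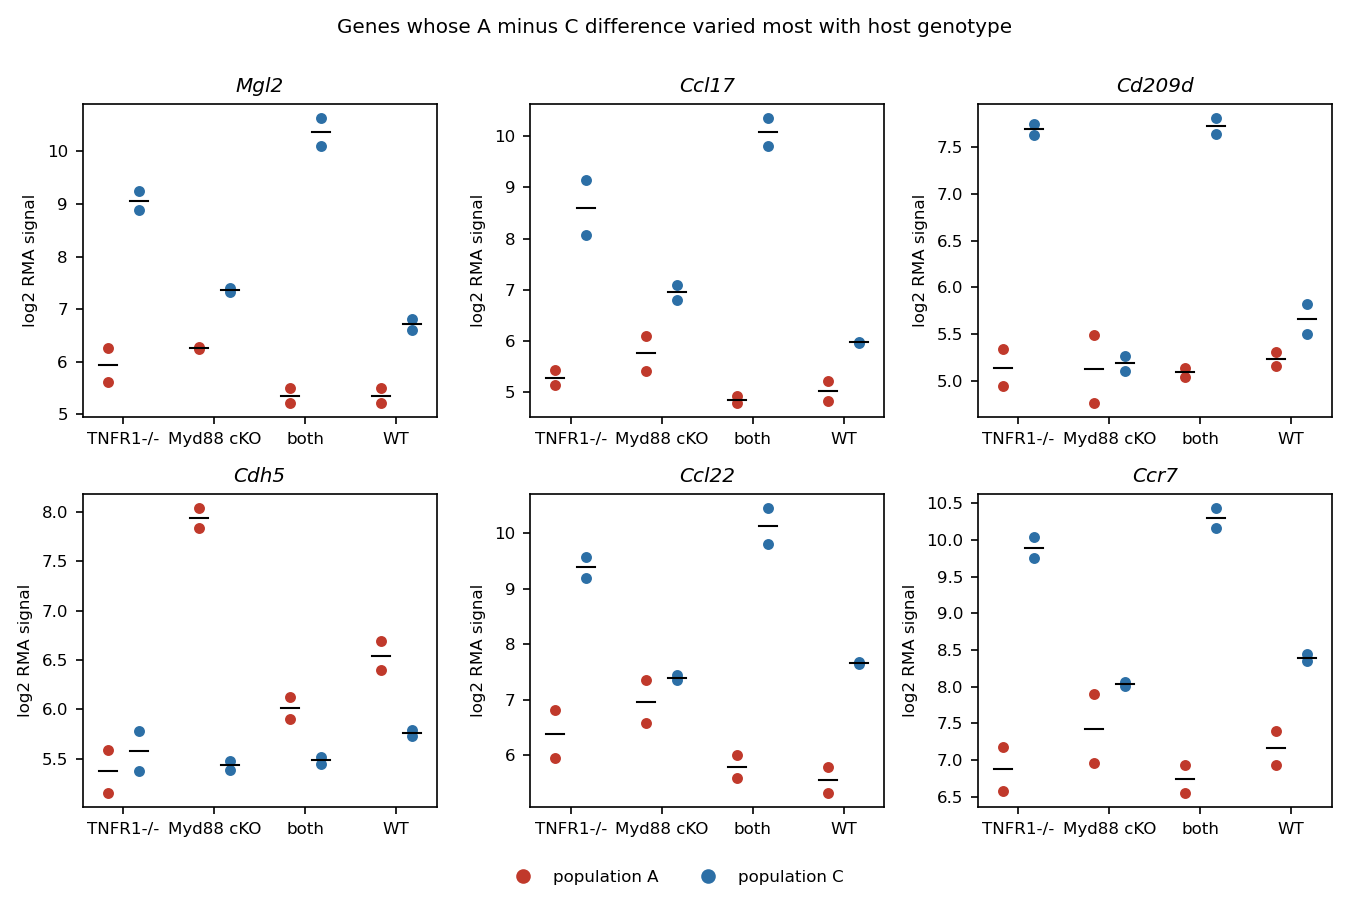
Log2 RMA signal (vertical axis) of each array of populations A (red) and C (blue) in the 4 host genotypes, for the 6 genes of smallest p in the test of a difference between genotypes; bars are means of 2 arrays. Mgl2, Ccl17, Ccl22 and Ccr7 are highest in C of double KO hosts, at 10.11 and 10.63 for Mgl2, while Cdh5 is highest in A of Myd88 cKO hosts at 7.84 and 8.04.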

How the data were processed

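RNA of sorted cells was hybridised to Affymetrix Mouse Gene 2.0 ST arrays. The deposited table gives a log2 signal for each probe set, which RMA in Affymetrix Expression Console 1.1 had produced, per the submitters' processing notes. RMA puts arrays on a common distribution, which removes a global shift in RNA content. Arrays have no depth; their number limits the precision. Of 41345 probe sets, 23521 had 1 gene symbol, 1814 several and 16010 none, and 23328 matched RefSeq by Entrez identifier. For each of 22180 genes the probe set with the highest average signal was kept, and 15078 genes passed the filter (above the 40th percentile of an array in at least 8 arrays). A gene could thus pass through the arrays of 1 population, and tested members of several lists did not lie above that mark in every array.

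All tests were two-sided limma fits (version 3.58.1, R 4.3.3; lmFit, then eBayes), adjusted by Benjamini-Hochberg across the tested genes: an additive fit of population and genotype (11 residual degrees of freedom), and a fit of 8 groups (8 degrees) for within-genotype contrasts and the F test of their difference (3 degrees). Tested on simulated data with 200 of 15078 genes changed, the additive fit recovered 71.5% at a log2 difference of 0.5, 97.0% at 1 and 100% at 2; the contrast within WT recovered 0%, 70.0% and 97.5%, and the F test, with the change in A_WT alone, 0%, 21.0% and 88.0%.

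Named were the gate and targeted genes, the 20 largest rises and 20 largest falls among called genes without overlap and with a common sign in all genotypes, from each of 38 lists the called members with the lowest adjusted p (6 at most), the 15 genes of smallest F test p, and the 5 of smallest and 5 of largest relative spread over genotypes. Another 9 genes (Ccr2, Csf1r, Adgre1, Cd68, Epx, Prg2, S100a9, Kit, Timd4) were chosen after their values were seen. The members and lists were chosen with earlier results of these data known.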

Additional observations from a re-analysis of the deposited data

Results flagged for a closer look

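The A minus C difference varied with host genotype, by the F test of limma over the 4 genotypes with Benjamini-Hochberg adjustment, for Mgl2 (adjusted p = 0.000312), Ccl17, Cd209d and Cdh5 (0.00212 each), Ccl22 (0.0114), Ccr7 (0.0166), Cbr2 and Stat4 (0.0186 each), Terc (0.0278), Folr2 and Igfbp7 (0.028 each), Zfp366 (0.0345), Edn1 (0.0455), and Ms4a7 and Plet1 (0.0462 each). Apart from Mgl2, Ccl17, Cd209d and Cdh5, each of these calls was lost under some of the 18 other settings tried. The largest difference was that of the double KO hosts for Mgl2 (-5.01), Ccl17 (-5.21), Ccl22 (-4.33), Ccr7 (-3.56), Plet1 (-3.04), Cd209d (-2.63), Stat4 (-1.41) and Zfp366 (-1.12), and that of the Myd88 cKO hosts for Cdh5 (2.50) and Igfbp7 (3.23).

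Among 158 sets of 8 arrays of a population, 2 held an array far from the others, where chance gives about 1 in 20. The mean log2 signal of the eicosanoid synthesis list was 7.02 in the second A array of WT hosts, against 7.39 to 7.67 in the other A arrays. Bank1 read 6.51 in the second C array of double KO hosts, against 5.69 to 6.03 in the other C arrays.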

How the results depend on the processing

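The count of 5121 called genes stayed within 1.5 times under 31 other settings, at 3988 to 5678 genes, among them the replicate block, in which the 2 arrays of a genotype with the same number were paired (5092 genes as a fixed block, 5129 as a random one), equal weights replaced by array weights (5551), quantile normalization (4778) and no filter (5496). It moved to 3297 at an adjusted p under 0.01, to 497 with a log2 difference of at least 1 and to 3275 without the TNFR1-/- hosts. The labels do not say whether arrays with the same replicate number are paired. Deviations of such arrays correlated at 0.029 in TNFR1-/-, 0.019 in Myd88 cKO, -0.204 in double KO and 0.246 in WT hosts. With 2 arrays per group, these values cannot settle it. Counts within a genotype, fitted on its own 4 arrays, were 836 in Myd88 cKO, 386 in double KO and 400 in WT hosts, and 519 in Myd88 cKO hosts with the random replicate block. The test between genotypes called 35 genes with array weights and 10 with the fixed replicate block. Leaving out 1 array gave 4483 to 5678 genes in the additive fit and 4 to 89 for the test between genotypes. Within genotypes it gave 728 to 2930 in TNFR1-/- and 16 to 662 in Myd88 cKO hosts. It gave 268 to 1282 in double KO and 433 to 3392 in WT hosts. Counts also rose in hosts that lost no array. Without either A_WT array they were 2930 in TNFR1-/-, 662 in Myd88 cKO and 1282 in double KO hosts. The 8 groups share 1 estimate of spread, and the A_WT pair correlated least. The cause of these shifts was not tested. Of 225 called genes named by the rule or added to it, 194 stayed called under all 32 settings and 31 were lost under at least 1, and no sign turned. The test between genotypes rests on 2 arrays a group. In the simulation, with 200 genes changed, it recovered 21.0% at a difference of 1, so a gene not called may still differ. Each simulated gene had the same spread in all arrays, whereas the A_WT pair here correlated less than the other pairs.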
